A study of Mus musculus with 9 samples.

Results

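Cytochrome P450 enzymes of families 1 to 3 are the genes whose names begin with Cyp1, Cyp2 or Cyp3 followed by a subfamily letter and a number, and 62 of the 24341 genes in the deposited table carried such a name. Livers of 9 wild-type (WT) C57BL/6 mice were profiled 48 hours after treatment, 3 given anti-CD40, an agonist antibody that activates the immune receptor CD40 (mice 2, 5 and 9), and 6 control mice given PBS (mice 3, 4, 7, 8, 11 and 12). The comparison asks how systemic activation of CD40 altered RNA in the liver. By the general rule of the study's methods the mice were sex-matched and 8 to 12 weeks old, and anti-CD40 mice whose blood B cells did not fall were excluded, while the labels of these mice state neither age nor sex. RNA was sequenced from the 3′ end and given as FPKM (fragments per kilobase of a transcript, scaled to the mapped reads of each library). Levels of different genes are therefore not on 1 scale. A fold change of 1 gene is relative to the other RNA of its library and moves with the scaling.

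Family 1 to 3 P450 enzymes sit in the endoplasmic reticulum of hepatocytes, where they use heme and electrons passed on by P450 reductase to oxidize drugs, toxins, steroids and fatty acids. Many are induced by ligand-sensing receptors, AHR for the Cyp1 genes and CAR and PXR for Cyp2b, Cyp2c and Cyp3a genes, and many are most abundant in the pericentral zone of the liver lobule. In mice several members differ between the sexes, and inflammation is known to lower hepatic P450 expression.

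The promoters of 3 pairs of genes are printed here because the genes of each pair share a subfamily but responded by unequal amounts. The capitals show which of 3 short motifs a window held. Each window runs from 250 bases before to 50 bases after the RefSeq transcription start, on build GRCm38.p6, written in the direction of transcription. Capitals mark the letters TATAAA (the TATA box, bound by TBP), CAAAGTCCA (a site bound by HNF4A) and TTGCNNAA (a site bound by C/EBP factors). Each was searched on both strands, and binding was not measured. Relative to the RefSeq start, TATAAA begins at 40 in Cyp2c40 and 10 in Cyp2c69, both after the start, and at -234 in Cyp3a11. The windows are chr7:26061245-26061544, plus strand for Cyp2b13, chr7:26173159-26173458, plus strand for Cyp2b9, chr19:39886720-39887019, minus strand for Cyp2c69, chr19:39812765-39813064, minus strand for Cyp2c40, chr5:145879805-145880104, minus strand for Cyp3a11 and chr5:137921570-137921869, minus strand for Cyp3a13.
Cyp2b13: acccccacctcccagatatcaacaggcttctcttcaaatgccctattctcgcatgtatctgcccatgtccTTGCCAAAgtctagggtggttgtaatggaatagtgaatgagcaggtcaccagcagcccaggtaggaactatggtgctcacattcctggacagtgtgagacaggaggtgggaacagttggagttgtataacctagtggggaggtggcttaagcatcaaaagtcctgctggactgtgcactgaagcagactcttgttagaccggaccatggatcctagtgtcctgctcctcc
Cyp2b9: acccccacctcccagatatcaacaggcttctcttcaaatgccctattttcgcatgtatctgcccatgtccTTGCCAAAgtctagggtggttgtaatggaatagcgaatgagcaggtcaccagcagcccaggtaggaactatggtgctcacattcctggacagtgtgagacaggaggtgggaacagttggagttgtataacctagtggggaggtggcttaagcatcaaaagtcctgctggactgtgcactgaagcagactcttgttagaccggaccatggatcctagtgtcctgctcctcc
Cyp2c69: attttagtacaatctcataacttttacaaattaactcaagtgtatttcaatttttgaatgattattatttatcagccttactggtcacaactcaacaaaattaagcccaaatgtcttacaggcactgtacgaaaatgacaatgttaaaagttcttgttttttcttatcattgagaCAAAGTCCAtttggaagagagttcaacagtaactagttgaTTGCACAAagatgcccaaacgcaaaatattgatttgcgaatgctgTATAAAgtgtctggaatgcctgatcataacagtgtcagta
Cyp2c40: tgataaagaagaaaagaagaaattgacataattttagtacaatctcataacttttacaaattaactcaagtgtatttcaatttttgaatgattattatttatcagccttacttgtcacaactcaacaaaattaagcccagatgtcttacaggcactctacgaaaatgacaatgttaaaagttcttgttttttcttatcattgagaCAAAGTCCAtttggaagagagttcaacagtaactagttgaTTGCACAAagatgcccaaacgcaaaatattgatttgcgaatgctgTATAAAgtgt
Cyp3a11: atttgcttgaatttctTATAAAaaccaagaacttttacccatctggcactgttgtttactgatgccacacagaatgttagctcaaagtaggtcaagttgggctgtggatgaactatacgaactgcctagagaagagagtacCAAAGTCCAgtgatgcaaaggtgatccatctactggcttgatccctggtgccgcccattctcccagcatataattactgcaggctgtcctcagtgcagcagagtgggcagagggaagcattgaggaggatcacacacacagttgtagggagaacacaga
Cyp3a13: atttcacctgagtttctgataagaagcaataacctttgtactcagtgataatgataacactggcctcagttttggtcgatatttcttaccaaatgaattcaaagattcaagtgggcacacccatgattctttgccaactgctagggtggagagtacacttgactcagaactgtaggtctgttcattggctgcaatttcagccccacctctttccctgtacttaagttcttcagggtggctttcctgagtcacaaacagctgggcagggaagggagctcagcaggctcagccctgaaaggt

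RefSeq promoter windows were matched for 52 of the 62 genes. TATAAA was in 27 of these 52 windows and in 14.2% of all 27025 windows, and CAAAGTCCA was in 10 of 52 and in 0.477% of all windows. TTGCNNAA was in 14 of the 52 windows, against 10.8% of all. The AHR core GCGTG was in 9 of 52 and in 32.5% of all windows, TTCNNNGAA, the letters bound by STAT factors, in 2 of 52 and in 8.47%, and GTTAATNAT, part of an HNF1 site, in none of the 52 and in 0.836%. GCGTG and TTCNNNGAA are not capitalized in the windows printed. The 10 genes with CAAAGTCCA were Cyp2c40, Cyp2c65, Cyp2c67, Cyp2c68, Cyp2c69, Cyp2c70, Cyp3a11, Cyp3a16, Cyp3a41a and Cyp3a41b, so they came from 2 subfamilies of related sequence and are not independent of each other.

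The liver of anti-CD40 mice held far less RNA from these genes. Of the 62 genes, 45 had a mean of at least 0.1 FPKM over the 9 mice and were tested. Of these, 36 were lower after anti-CD40, 2 were higher and 7 were not called in limma at an adjusted p under 0.05. Among all 13807 genes tested with the same fit, 21.7% were lower and 23.5% higher, or 1647 and 5635 genes of 13860 when the Saa acute-phase genes were left out and each mouse rescaled, which gave 35 and 4 of the 45. In 34 of the 45 every anti-CD40 mouse lay below every control mouse, as did 19.6% of all genes, and the members called lower with overlapping groups were Cyp2c38 and Cyp2d40. The median log2 fold change was -1.83 over the 45 genes and 0.0056 over all genes tested. A fall of at least 16-fold was reached by 10 of the 45, and by 0.275% of all genes. The 10 include Cyp3a44, which passed the filter only through the control mice. With 1 FPKM added its log2 fold change was -2.33, short of that size.

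Among the 17 untested genes, 9 were at the table's floor of 0.01 FPKM in every mouse and the other 8 had means of up to 0.0849 FPKM. Cyp3a16 and Cyp3a44 passed the filter only through the control mice and Cyp1b1 only through the anti-CD40 mice. Without these 3 genes, 34 of 42 were lower, 1 was higher and 7 were not called.

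Summed over the 62 genes, anti-CD40 mice held 1828 to 2073 FPKM and control mice 7432 to 10184 FPKM, and the mean after anti-CD40 was 22.1% of the control mean. The sums are led by genes with high FPKM and describe the table rather than molecules. Within them the makeup also differed, with Cyp2c genes giving 11.6 to 12.6% of the sum after anti-CD40 and 31.3 to 35.5% in the control mice, and Cyp2d genes 17.4 to 21.3% and 5.49 to 11.6%.

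**Figure D1:**
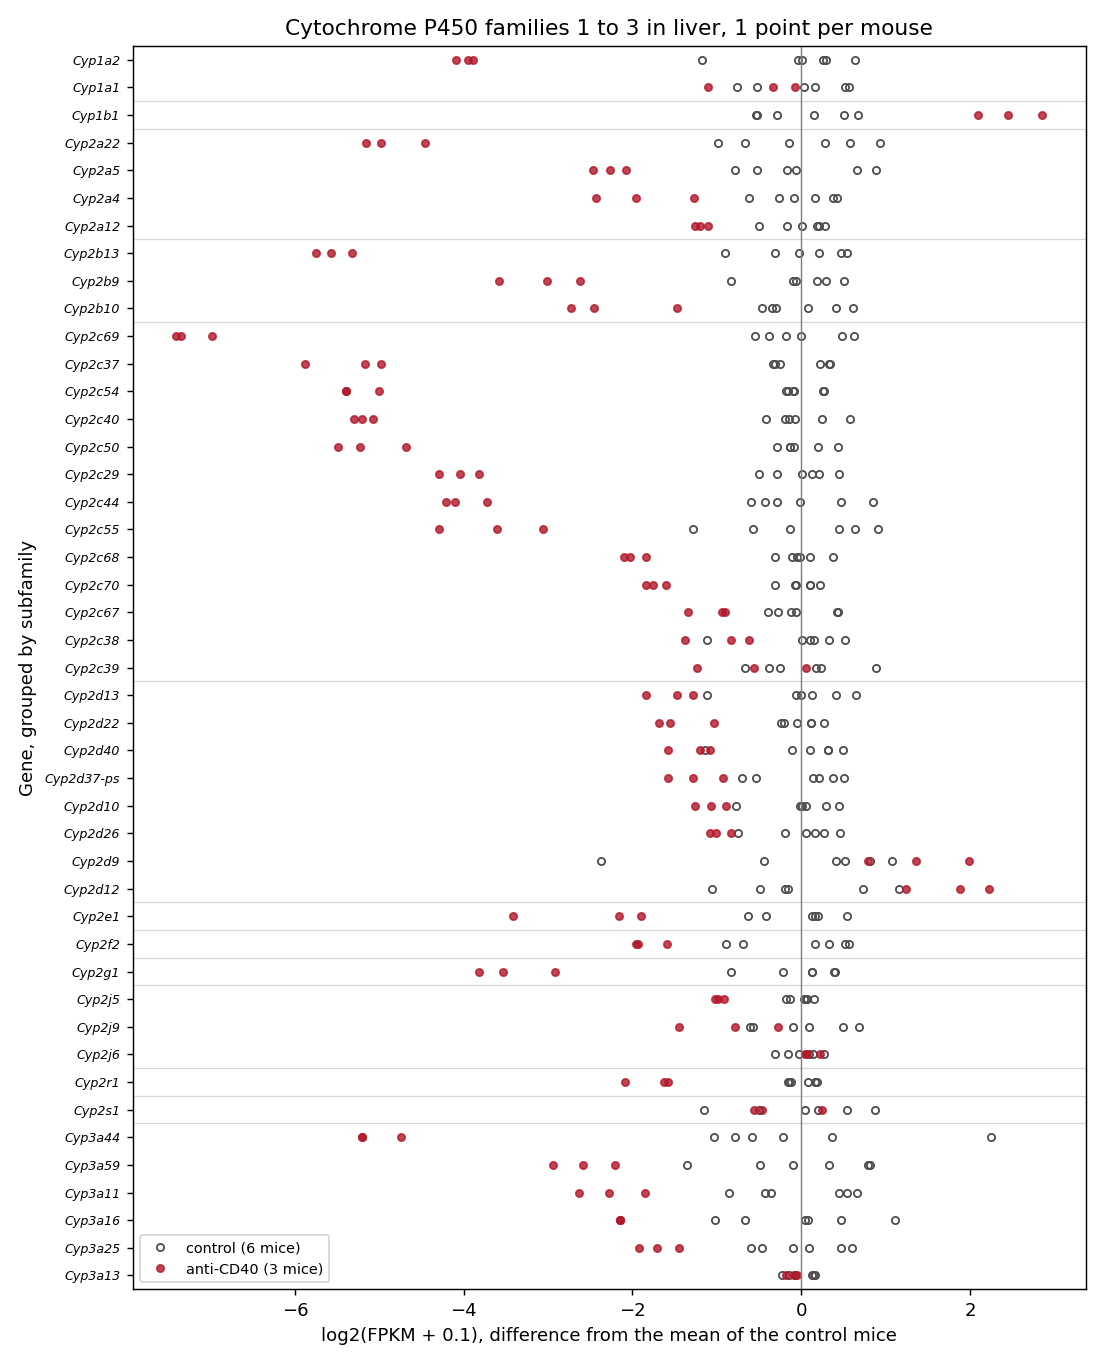
Each point is 1 mouse, placed by log2(FPKM + 0.1) of a gene minus the mean of the 6 control mice (horizontal axis), for the 45 tested genes grouped by subfamily (vertical axis), with open circles for control and filled red circles for anti-CD40 mice. Most genes have all 3 anti-CD40 mice left of every control mouse, with Cyp2c69 about 7 log2 units below the control mean, while Cyp1b1 and Cyp2d12 lie to the right and Cyp3a13 and Cyp2j6 stay among the controls.

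Other cells in the tissue shifted at the same time. Of 15 hepatocyte genes tested, among them albumin, 12 were lower and 2 higher, with a sum of 25709 to 32143 FPKM after anti-CD40 and 54159.9 to 105678 FPKM in the control mice and a median log2 fold change of -1.02. All 8 neutrophil markers tested were higher (sums of 4219 to 5206 FPKM and 18.3 to 156 FPKM), as were 8 of 11 for monocytes and macrophages, with 1 lower (363 to 489.5 FPKM and 47.1 to 81.9 FPKM), 9 of 10 for T and NK cells (75.7 to 103 FPKM and 5.98 to 17.1 FPKM), 5 of 5 for B cells (25.7 to 36.7 FPKM and 1.84 to 7.18 FPKM) and 2 of 6 for cholangiocytes. All 6 Kupffer cell markers were lower, of 8 endothelial markers 4 were lower and 3 higher, and 1 of 11 pancreatic acinar genes was higher, with the highest acinar sum, 1347 FPKM, in anti-CD40 mouse 5. Over all genes tested, 21.7% were lower and 23.5% higher. In bulk liver, fewer hepatocytes and less RNA per hepatocyte cannot be told apart.

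Many of the P450 genes fell further than the mean of the hepatocyte list, but that list is mixed. Its higher genes were Apob (log2 fold change 0.74) and Fgb (0.88). Alb (-2.43), Apoa2 (-2.18), Apoc3 (-2.14) and Ttr (-1.96) fell further than the P450 median of -1.83, and the remaining genes of the list fell by less. When each mouse was scaled to the mean level of the hepatocyte list, an alternative chosen after seeing the data, 24 of the 45 genes were lower and 5 higher, against 2.89% and 76.2% of all genes, and the median was -0.72 over the 45 and 1.11 over all genes. The directions of Cyp2c38, Cyp2c67, Cyp2d10, Cyp2d26 and Cyp2j5, called lower on the deposited scale, turned under that scaling without a call. On the deposited scale, 10 of 14 pericentral hepatocyte genes that are not P450s were lower, with a median of -1.34. Of 13 periportal genes 8 were lower and 1 higher, with a median of -0.94. The shares over all genes on that scale were 21.7% lower and 23.5% higher.

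The Cyp1 family, whose genes are induced through AHR, moved in both directions, though the rise was that of Cyp1b1 alone. Cyp1a2 (chr9:57676937-57683655, mm10), the hepatic enzyme that oxidizes caffeine and arylamines, was at 15.4, 16.9 and 17.7 FPKM in anti-CD40 mice 2, 5 and 9 and ran from 117 to 412 FPKM (median 292) in the control mice. The groups lay far apart, with no control near any anti-CD40 mouse (log2 fold change -3.98, SE 0.32, limma adjusted p = 6.57e-06). Its neighbor Cyp1a1, the inducible enzyme that AHR ligands raise most, was at 0.0747, 0.198 and 0.256 FPKM after anti-CD40 and 0.121 to 0.455 FPKM in controls, overlapping and not called (log2 fold change -0.50, 95% confidence interval -1.29 to 0.28, limma adjusted p = 0.273), but called lower after quantile normalization (-0.93, limma adjusted p = 0.0418). It rests on 26 reads over the 3 anti-CD40 mice and 84 over the 6 controls, where reads could be recovered from the steps between low values.

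Cyp1b1 (chr17:79706953-79715041), an AHR-responsive enzyme found mostly outside hepatocytes, was 1 of the 2 genes that rose. Since it passed the filter only through the anti-CD40 mice, the filter itself favored a rise. It was at 1.06, 0.779 and 0.585 FPKM in the anti-CD40 mice and from 0.0107 to 0.157 FPKM (median 0.0553) in the control mice. No control reached the lowest anti-CD40 mouse (log2 fold change 2.47, SE 0.33, limma adjusted p = 1.73e-04). Because control values lay near the floor, the size of this rise depends on the value added before taking logs, from 0.75 when 1 FPKM was added to 3.77 when 0.01 FPKM was added. Markers of neutrophils, monocytes, T cells and B cells were also higher, as given above, and their part in this rise was not tested.

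All 4 Cyp2a genes on chromosome 7 were lower, and their summed FPKM fell to 30.6% of control. Cyp2a22 had the largest decrease, with 1.38, 1.21 and 2.04 FPKM after anti-CD40 and control values from 23.5 to 89.5 FPKM (median 49.8) (log2 fold change -4.87, SE 0.39, limma adjusted p = 6.59e-06). Cyp2a12, which hydroxylates testosterone and bile acids and had the highest control mean of the subfamily, was at 216, 207 and 232 FPKM against 349.5 to 603 FPKM (log2 fold change -1.19, SE 0.17, limma adjusted p = 2.82e-04). These relatives share 87% of their promoter windows and their decreases, set side by side and not tested against each other, lay 3.68 log2 units apart.

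Cyp2a5, the coumarin and nicotine oxidase, averaged 74.3 ± 9.91 FPKM (SD, n = 3) after anti-CD40 and 389 ± 181 (SD, n = 6) in controls (log2 fold change -2.27, SE 0.34, limma adjusted p = 3.68e-04). Cyp2a4, a female-biased steroid hydroxylase, averaged 41.7 ± 17 and 151 ± 39.7 FPKM (log2 fold change -1.89, SE 0.28, limma adjusted p = 3.51e-04). The ratio of Cyp2a4 to Cyp2a5 within a mouse overlapped between the groups (change 0.38 on the log2 scale, SE 0.55, exact permutation p = 0.571, adjusted over 13 pairs 0.571). Over the last 400 bases of the transcripts, 33.3% of the 50-base windows of Cyp2a4 occur in another gene, mostly Cyp2a5. For Cyp2a5 the share is 2.56%, and how shared reads were divided is not given.

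Each of the 3 tested Cyp2b genes fell, and the subfamily sum was 8.25% of control, 12.8 to 25.8 FPKM against 139 to 314 FPKM. Cyp2b13, a female-biased gene, was at 1.81, 2.07 and 2.47 FPKM in the anti-CD40 mice and from 55.2 to 151 FPKM (median 110.4) in controls (log2 fold change -5.55, SE 0.29, limma adjusted p = 5.56e-07). Cyp2b9, also female-biased, was at 7.18, 10.7 and 14.1 FPKM and 48.9 to 124 FPKM (log2 fold change -3.07, SE 0.29, limma adjusted p = 1.64e-05). The promoter windows of Cyp2b13 and Cyp2b9 printed above are 99.3% identical, and their decreases lay 2.48 log2 units apart, a contrast chosen after its values were seen and given with no test. Cyp2b10, the classical phenobarbital and CAR target, was at 3.8, 4.62 and 9.23 FPKM against 18.6 to 39.6 FPKM (log2 fold change -2.22, SE 0.31, limma adjusted p = 2.45e-04), and the ratio of Cyp2b9 to Cyp2b10 overlapped between groups (change -0.85 on the log2 scale, SE 0.40, exact permutation p = 0.0952, adjusted 0.124).

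The Cyp2c subfamily on chromosome 19 held the deepest decreases. Of its 16 genes 13 were tested and 12 were lower, with a median log2 fold change of -4.01, and its sum fell to 8.16% of control. The sums were 229.8 to 240.1 FPKM after anti-CD40 and 2517 to 3402 FPKM in controls, ranges far apart.

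Cyp2c69 (chr19:39842660-39886769), a female-biased gene, had the largest fitted decrease of the 45 genes on the log2(FPKM + 0.1) scale. By the ratio of group means, 167-fold, it came after Cyp3a44 at 242-fold, for which 2 of 3 anti-CD40 mice were at the floor. Cyp2c69 was at 1.44, 1.5 and 1.97 FPKM in anti-CD40 mice 2, 5 and 9 and from 179.5 to 405 FPKM (median 246) in the control mice. All anti-CD40 mice were below 2 FPKM, far from any control (log2 fold change -7.25, SE 0.26, limma adjusted p = 6.79e-08). Cyp2c40, its female-biased relative, was at 2.66, 2.25 and 2.42 FPKM and 69.7 to 139 FPKM (log2 fold change -5.20, SE 0.20, limma adjusted p = 8.66e-08). The ratio of Cyp2c40 to Cyp2c69 rose without overlap (change 2.05 on the log2 scale, SE 0.23, exact permutation p = 0.0238, adjusted 0.0387). Their printed windows are 89% identical over 300 bases, a share that counts bases left without a partner by the offset of the windows as different. Both windows hold CAAAGTCCA, TTGCACAA and TATAAA in the same order, 30 bases apart because RefSeq places the 2 starts differently.

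Reads from the 3′ end limit how well some of these relatives can be told apart. Over the last 400 bases of their annotated transcripts, 67.0% of the 50-base windows of Cyp2c40 also occur in another gene, as do 51.6% for Cyp2c68, 39.9% for Cyp2c69 and 37.3% for Cyp2c67. The ends of Cyp2c40 and Cyp2c68 are 98.5% identical and those of Cyp2c40 and Cyp2c67 98%. Even so the deposited values, looked up after these overlaps were seen, separate the 3 genes, at log2 fold changes of -5.20 for Cyp2c40, -1.99 for Cyp2c68 and -1.06 for Cyp2c67, and how the authors' counting divided shared reads is not given in the sources used here.

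Cyp2c37, Cyp2c50 and Cyp2c54, fatty acid epoxygenases counted among CAR and PXR targets, fell by similar amounts. Cyp2c50 was at 12.4, 14.9 and 21.8 FPKM against values from 464 to 766 FPKM (median 523) (log2 fold change -5.14, SE 0.20, limma adjusted p = 1.04e-07). Cyp2c37 averaged 4.44 ± 1.35 and 182 ± 41.6 FPKM (log2 fold change -5.35, SE 0.24, limma adjusted p = 2.01e-07), and Cyp2c54 4.04 ± 0.682 and 159 ± 23.8 FPKM (log2 fold change -5.26, SE 0.15, limma adjusted p = 1.31e-08). The ratio of Cyp2c37 to Cyp2c50 overlapped between the groups (change -0.21 on the log2 scale, SE 0.16, exact permutation p = 0.214, adjusted 0.232). Their 3′ ends are 95% identical, and the division of reads between them is likewise not given.

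Cyp2c29, a CAR-inducible epoxygenase with the highest control mean of the subfamily, was at 72.3, 52 and 61.9 FPKM after anti-CD40 and from 725 to 1395 FPKM (median 1075) in controls (log2 fold change -4.06, SE 0.20, limma adjusted p = 4.45e-07). Its neighbor Cyp2c38 was at 7.07, 10.4 and 12.1 FPKM and 8.52 to 26.7 FPKM, with control mouse 4 inside the anti-CD40 range (log2 fold change -0.94, SE 0.32, limma adjusted p = 0.0348). That call was lost in 9 of 19 alternative fits, among them those without anti-CD40 mouse 2 or 5 or control mouse 3, 7, 8, 11 or 12, with adjusted p up to 0.157 in limma, and in another its direction turned. The ratio of Cyp2c29 to Cyp2c38 differed between groups without overlap (change -3.11 on the log2 scale, SE 0.44, exact permutation p = 0.0238, adjusted 0.0387).

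Cyp2c44, an arachidonic acid epoxygenase, was at 3.82, 4.12 and 5.39 FPKM against 47.9 to 131 FPKM (log2 fold change -4.01, SE 0.30, limma adjusted p = 4.22e-06), and Cyp2c70, the enzyme that makes muricholic bile acids, at 97.6, 109 and 92.5 FPKM against 266 to 387 FPKM (log2 fold change -1.73, SE 0.13, limma adjusted p = 4.44e-06). Both fell without overlap, Cyp2c44 by more (change in their ratio -2.28 on the log2 scale, SE 0.36, exact permutation p = 0.0238, adjusted 0.0387). Cyp2c55, a low CAR and PXR target, went from 0.933 to 4.64 FPKM in controls to 0.0289 to 0.202 FPKM (log2 fold change -3.65, SE 0.47, limma adjusted p = 1.34e-04). With anti-CD40 values near the 0.1 FPKM added, its size is uncertain, and over the alternative fits it ran from -4.61 to -1.66. Cyp2c39 was the member of the subfamily that was tested and not called, at 0.601, 1.02 and 1.62 FPKM against 0.94 to 2.95 FPKM (log2 fold change -0.58, 95% confidence interval -1.37 to 0.22, limma adjusted p = 0.215).

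**Figure D2:**
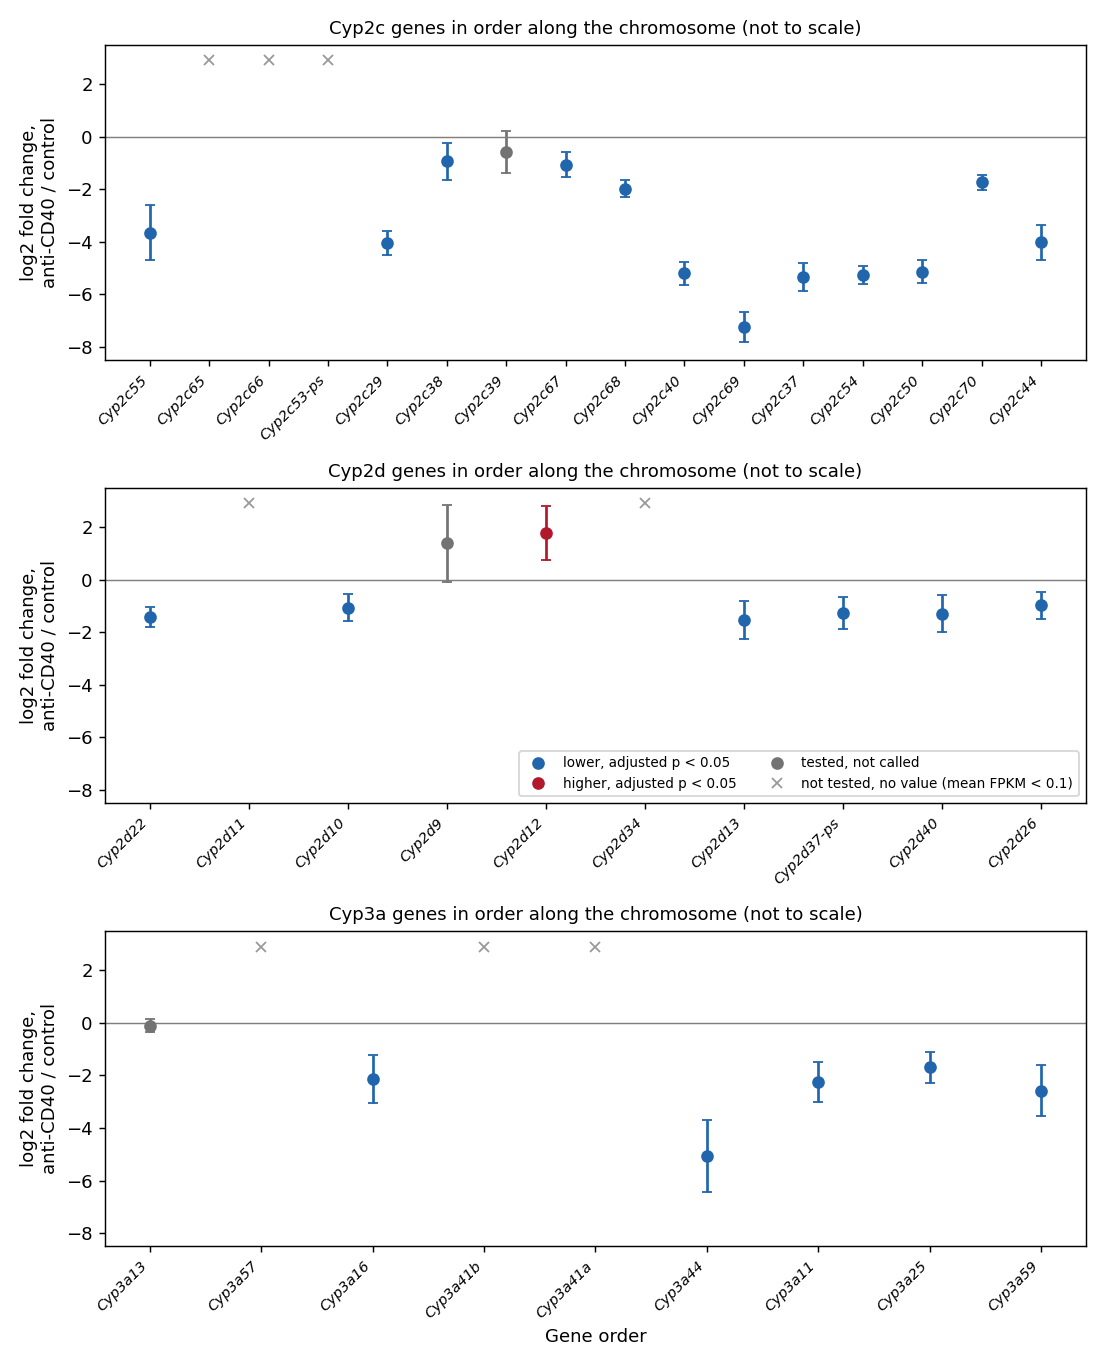
The 3 panels place the Cyp2c, Cyp2d and Cyp3a genes in their order along the chromosome (horizontal axis, not to scale) against the log2 fold change of anti-CD40 over control mice (vertical axis), with limma 95% confidence intervals as bars and crosses for genes not tested, which have no value. In the Cyp2c panel Cyp2c38, Cyp2c39 and Cyp2c67 lie next to each other between 0 and -1.1, with Cyp2c29 at -4.06 on one side and Cyp2c40 and Cyp2c69 at -5.20 and -7.25 further along.

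The order along chromosome 19 shows that neighbors did not share 1 response. Cyp2c38, Cyp2c39 and Cyp2c67, 3 adjacent genes, had log2 fold changes of -0.94, -0.58 and -1.06, while Cyp2c29 before them stood at -4.06 and the run Cyp2c40, Cyp2c69, Cyp2c37, Cyp2c54 and Cyp2c50 after Cyp2c68 lay between -5.14 and -7.25. This grouping by position was seen in the values and was not tested.

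The Cyp2d subfamily on chromosome 15 fell by less than Cyp2c and Cyp3a and held a gene that rose. Of 10 genes 8 were tested, with 6 lower, 1 higher and 1 not called, and the sum was 319 to 442 FPKM after anti-CD40 and 408 to 950.3 FPKM in controls, ranges that overlap. The fall of Cyp2d10 and Cyp2d26 among the 6 turned under scaling to hepatocyte genes. The 6 also include the pseudogene Cyp2d37-ps (log2 fold change -1.26, SE 0.28, limma adjusted p = 0.00405). Cyp2d13 had the largest decrease, 1.47, 1.93 and 2.22 FPKM against 2.49 to 8.7 FPKM (log2 fold change -1.53, SE 0.33, limma adjusted p = 0.00339). Cyp2d22, often set beside human CYP2D6, was at 12.9, 11.9 and 18.7 FPKM against 32.4 to 46.2 FPKM (log2 fold change -1.42, SE 0.17, limma adjusted p = 7.40e-05).

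Cyp2d10, with the highest control mean of the subfamily, averaged 140.3 ± 18.1 and 303 ± 77.9 FPKM (log2 fold change -1.07, SE 0.23, limma adjusted p = 0.00358), and Cyp2d26 123 ± 11.1 and 250 ± 65.6 FPKM (log2 fold change -0.98, SE 0.23, limma adjusted p = 0.00568). In neither gene did the groups overlap. The ratio of Cyp2d22 to Cyp2d26 overlapped (change -0.45 on the log2 scale, SE 0.24, exact permutation p = 0.0714, adjusted 0.103).

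Cyp2d9, a male-biased steroid hydroxylase, had higher values after anti-CD40 but was not called. It was at 33.4, 50 and 77 FPKM in anti-CD40 mice 2, 5 and 9 and from 3.65 to 40.9 FPKM (median 26.7) in controls, where mouse 4 was lowest (log2 fold change 1.38, 95% confidence interval -0.09 to 2.85, limma adjusted p = 0.115). Relative to Cyp2d10 it rose, with no overlap of the groups (change 2.45 on the log2 scale, SE 0.54, exact permutation p = 0.0238, adjusted 0.0387). Cyp2d12 (chr15:82555098-82559413) was the second gene that rose, at 0.572, 0.947 and 1.23 FPKM against 0.0369 to 0.537 FPKM (log2 fold change 1.78, SE 0.46, limma adjusted p = 0.00906). Its fold change was 0.64 with 1 FPKM added and 2.89 under the hepatocyte scaling. It rests on 80 reads over the anti-CD40 mice and 36 over the controls, and 18.2% of the 50-base windows in its 3′ end, and 26.8% in that of Cyp2d9, occur in another gene.

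The single-gene subfamilies on chromosome 7 include Cyp2e1 (chr7:140763832-140774977), which oxidizes ethanol and acetaminophen. It was at 128, 305 and 366 FPKM in anti-CD40 mice 2, 5 and 9 and from 887 to 2002 FPKM (median 1518) in controls. Mouse 2 was lowest and no anti-CD40 mouse reached a control (log2 fold change -2.49, SE 0.34, limma adjusted p = 2.10e-04). Cyp2f2, which activates naphthalene, was at 40.8, 41.4 and 52.6 FPKM against 85.6 to 236 FPKM (log2 fold change -1.83, SE 0.33, limma adjusted p = 0.00117), and the ratio of Cyp2e1 to Cyp2f2 overlapped (change -0.67 on the log2 scale, SE 0.45, exact permutation p = 0.167, adjusted 0.197). Cyp2r1, a vitamin D 25-hydroxylase, was at 4.84, 3.36 and 4.66 FPKM against 13.1 to 16.7 FPKM (log2 fold change -1.77, SE 0.15, limma adjusted p = 7.67e-06). Cyp2g1, best known from olfactory tissue, was at 0.137, 0.262 and 0.0937 FPKM against 1.44 to 3.5 FPKM (log2 fold change -3.42, SE 0.30, limma adjusted p = 9.98e-06). Its values after anti-CD40 were also low, and over the alternative fits its fold change ran from -4.04 to -1.66. Cyp2s1, an enzyme of epithelia, was at 0.397 to 0.767 FPKM against 0.229 to 1.24 FPKM and was not called (log2 fold change -0.26, 95% confidence interval -1.17 to 0.65, limma adjusted p = 0.631).

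Of the 7 Cyp2j genes on chromosome 4, 3 were tested, and Cyp2j5 was lower while Cyp2j6 and Cyp2j9 were not called. Cyp2j5, an arachidonic acid epoxygenase, was at 132, 136 and 143 FPKM against values from 238 to 299.8 FPKM (median 278), with a narrow spread in both groups (log2 fold change -0.98, SE 0.10, limma adjusted p = 3.89e-05). Cyp2j6 was at 29.8, 26.3 and 26.7 FPKM against 20.6 to 30.6 FPKM, inside the control range (log2 fold change 0.11, 95% confidence interval -0.19 to 0.41, limma adjusted p = 0.521). The ratio of Cyp2j5 to Cyp2j6 did not overlap between groups (change -1.09 on the log2 scale, SE 0.14, exact permutation p = 0.0238, adjusted 0.0387). Cyp2j9 was at 0.804, 0.469 and 1.18 FPKM against 0.925 to 2.41 FPKM and missed the threshold (log2 fold change -0.84, 95% confidence interval -1.60 to -0.08, limma adjusted p = 0.0697), which it passed in limma without anti-CD40 mouse 9 (adjusted p = 0.0424), without control mouse 8 (0.0479) or 12 (0.042), or after quantile normalization (0.0141).

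In the Cyp3a subfamily on chromosome 5, 5 of 6 tested genes were lower and the sum fell to 28.6% of control, 416 to 550.2 FPKM against 954 to 2127 FPKM. Cyp3a11 (chr5:145854607-145879854), the main PXR-induced drug oxidase of mouse liver, was at 273, 203 and 158 FPKM in anti-CD40 mice 2, 5 and 9 and from 543 to 1554 FPKM (median 1055) in controls. All anti-CD40 mice were below all controls, although the controls themselves spread widely (log2 fold change -2.25, SE 0.34, limma adjusted p = 4.19e-04). Cyp3a25 was at 131, 94.2 and 109 FPKM against 236 to 541 FPKM (log2 fold change -1.69, SE 0.26, limma adjusted p = 4.79e-04), and fell by less than Cyp3a11 (change in the ratio of Cyp3a11 to Cyp3a25 -0.56 on the log2 scale, SE 0.22, exact permutation p = 0.0238, adjusted 0.0387). Cyp3a59 was at 7.63, 4.55 and 5.83 FPKM against 13.8 to 62.7 FPKM (log2 fold change -2.58, SE 0.44, limma adjusted p = 8.08e-04), and its 3′ end is 94.5% identical to that of Cyp3a25.

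Cyp3a13 (chr5:137892933-137921619), a PXR target also found in intestine, stood apart from Cyp3a11. It was at 139, 130.4 and 142 FPKM after anti-CD40 and from 126 to 165 FPKM (median 151) in controls, with all 3 anti-CD40 mice inside the control range (log2 fold change -0.11, 95% confidence interval -0.37 to 0.16, limma adjusted p = 0.492). The sign of this small difference turned under quantile normalization, where it was called higher at 0.32, under removal of the Saa genes with rescaling and under scaling to hepatocyte genes. The ratio of Cyp3a11 to Cyp3a13 fell with no overlap of the groups (change -2.15 on the log2 scale, SE 0.46, exact permutation p = 0.0238, adjusted 0.0387). In their printed windows, 63.7% identical, Cyp3a11 holds CAAAGTCCA and TATAAA and Cyp3a13 none of the capitalized motifs. Of all tested members with a window, CAAAGTCCA was in 7 of 30 called lower and 0 of 8 others. Whether the motif bears on the response was not tested.

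Cyp3a44 and Cyp3a16, female-biased genes of low level, were nearly absent after anti-CD40. Cyp3a44 was at 0.0514, 0.01 and 0.01 FPKM against values from 1.88 to 19.3 FPKM (median 3.01) (log2 fold change -5.05, SE 0.61, limma adjusted p = 9.19e-05), and its highest control, mouse 7, stood far from the rest. With the anti-CD40 mice near the floor, its fold change depends on the value added, from -2.33 with 1 FPKM to -7.09 with 0.01 FPKM. Cyp3a16 was at the floor in all 3 anti-CD40 mice and at 0.139 to 0.949 FPKM in controls (limma adjusted p = 0.00179). With 79 reads over the controls and 0 over the anti-CD40 mice, it was at least 14.4-fold lower against a floor of 3 reads over the group. Cyp3a41a and Cyp3a41b share identical 3′ ends, were below the filter and cannot be read apart.

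**Figure D3:**
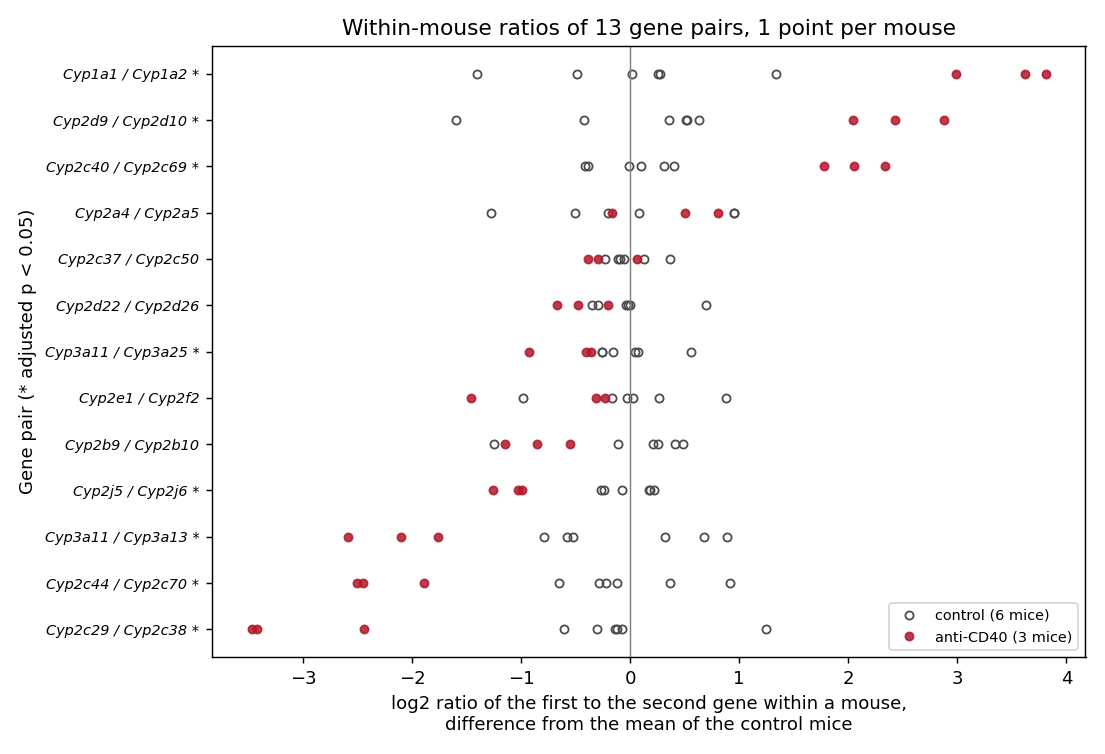
Each point is 1 mouse, placed by the log2 ratio of the first to the second gene of a pair minus the mean of the control mice (horizontal axis), for 13 pairs (vertical axis), with open circles for control and filled red circles for anti-CD40 mice and a star where the adjusted exact p was under 0.05. Points right of 0 mean that the first gene lost less or gained more, as for Cyp1a1 over Cyp1a2 at 3.47, and points left that it lost more, as for Cyp2c29 over Cyp2c38 at -3.11.

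Some pairs of relatives thus changed by unequal amounts within the same livers. Such ratios do not depend on how a mouse is scaled apart from the 0.1 FPKM added. How often other pairs of genes in these livers changed unequally was not tested, so the count has no background. Of 13 pairs 8 differed between the groups, including Cyp1a1 and Cyp1a2 (change 3.47 on the log2 scale, SE 0.57, exact permutation p = 0.0238, adjusted 0.0387), which is the smallest 2-sided p that 3 mice against 6 allow. Without any 1 control mouse the same 8 pairs kept their direction and the smallest p of 0.0357, but adjusted values then lay between 0.0516 and 0.058 and none passed.

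Grouped by regulation, the lists of members named here overlap with the subfamilies above and were chosen with earlier results known. Of the 8 CAR and PXR targets 7 were lower and Cyp3a13 was not called, with a median of -3.85 against 0.0056 over all genes. Of the 3 AHR targets Cyp1a2 was lower, Cyp1b1 higher and Cyp1a1 not called. Without Cyp1b1, which passed the filter only through the anti-CD40 mice, 1 of 2 was lower and 1 was not called. Of 8 female-biased genes tested 7 were lower and Cyp2c39 was not called, against 21.7% lower of all genes. Without Cyp3a16 and Cyp3a44, which passed the filter only through the control mice, 5 of 6 were lower with a median of -4.13. Every mouse had Xist between 2.23 and 3.82 FPKM and 4 Y-linked genes at the floor. By these genes every mouse of both groups was female, so the 2 groups did not differ in sex.

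**Figure D4:**
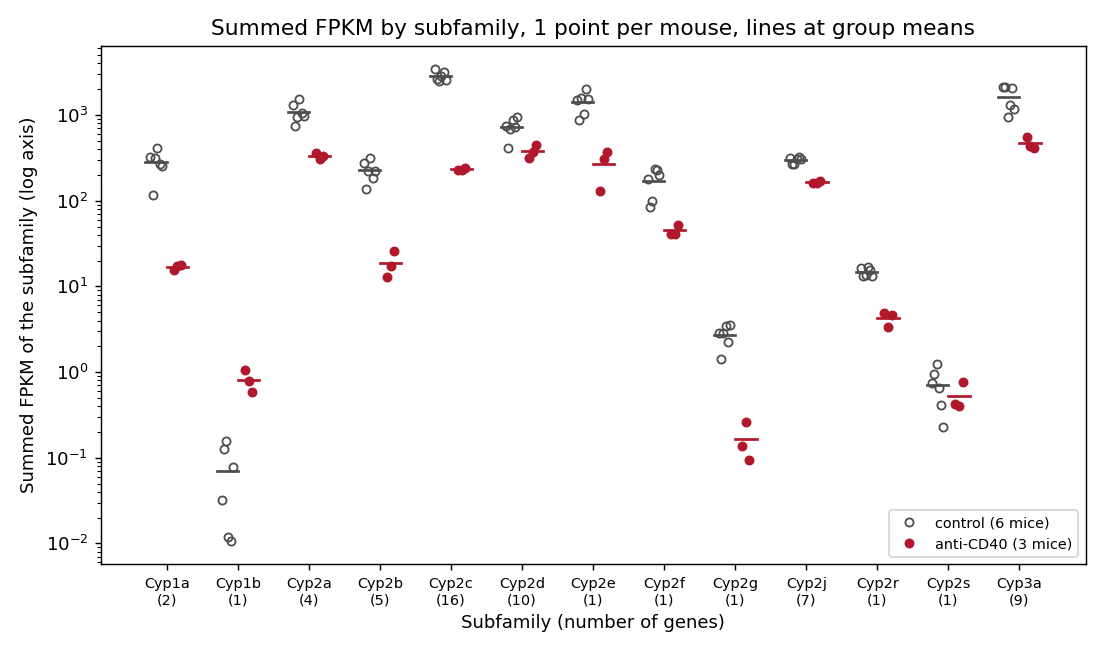
Each point is the summed FPKM of a subfamily in 1 mouse (vertical log axis), by subfamily with its number of genes (horizontal axis), with open circles for control mice, filled red circles for anti-CD40 mice and lines at group means. Cyp1a, Cyp2b, Cyp2c and Cyp2g sums fell to under 10% of control, Cyp2d and Cyp2j sums to 51.6% and 55.6%, and only Cyp1b lies higher after anti-CD40 without overlap.

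Genes of electron transfer and heme, a list not limited to partners of these enzymes, changed unevenly. Of 19 electron transfer and heme genes, 11 were lower, 1 was higher and 7 were not called, with a median of -0.49. Among all genes tested, 21.7% were lower and 23.5% higher. Por, the P450 reductase, was at 49.2 ± 13.2 FPKM after anti-CD40 and 59.5 ± 19.5 in controls and was not called (log2 fold change -0.25, 95% confidence interval -0.83 to 0.32, limma adjusted p = 0.456). The largest decreases were Cyb5r3, a cytochrome b5 reductase (log2 fold change -1.96, SE 0.27, limma adjusted p = 2.00e-04), and Cyb5b, a cytochrome b5 of mitochondria (log2 fold change -1.92, SE 0.16, limma adjusted p = 8.73e-06). Both were lower without overlap, as was Cyb5a, another cytochrome b5 named in addition (log2 fold change -1.72, SE 0.13, limma adjusted p = 5.25e-06). Alas1, the rate-limiting enzyme of heme synthesis, was at 54.3 to 72.4 FPKM and 16.5 to 68.9 FPKM and was not called (log2 fold change 1.02, 95% confidence interval 0.15 to 1.90, limma adjusted p = 0.0553), but was called higher without control mouse 12 (log2 fold change 1.27, adjusted p = 0.00516) and under 3 other scalings. Hmox1, which degrades heme, was the 1 gene of the list that rose, at 21.8 to 27.6 FPKM against 7.8 to 15.7 FPKM (log2 fold change 1.35, SE 0.20, limma adjusted p = 3.46e-04).

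Among 22 regulators tested, 8 were lower, 1 was higher and 13 were not called, with a median of -0.47. Of all genes tested, 21.7% were lower and 23.5% higher, so being called was about as common among all genes. Without anti-CD40 mouse 2, 5 regulators were called. Nr1i3, which encodes CAR, was at 3.77, 10.9 and 3.77 FPKM after anti-CD40 and from 16.8 to 39.4 FPKM (median 30.1) in controls (log2 fold change -2.38, SE 0.35, limma adjusted p = 3.40e-04). The table gives Nr1i3 the same position as Tomm40l and as Apoa2, a hepatocyte gene with a 4.60-fold lower mean after anti-CD40 at levels of 4839 FPKM and above, and whether reads were divided correctly among them was not tested. Cux2, a repressor enriched in female liver, was at 0.01 to 0.0643 FPKM against 0.179 to 1.07 FPKM (log2 fold change -1.91, SE 0.41, limma adjusted p = 0.00348). It passed the filter only through the control mice, its fold change ran from -0.48 with 1 FPKM added to -3.34 with 0.01 FPKM, and its call was lost under the hepatocyte scaling (limma adjusted p = 0.124). The gene called higher was Nfe2l2, encoding NRF2, at 21.8 to 32 FPKM against 10 to 23.6 FPKM with overlap (log2 fold change 0.80, SE 0.25, limma adjusted p = 0.0258), a call lost without anti-CD40 mouse 2 (adjusted p = 0.115) or mouse 5 (adjusted p = 0.0724) in limma. The genes for PXR, HNF4A and AHR were not called, with log2 fold changes of -0.61 with an adjusted p of 0.0579 for Nr1i2, -0.44 with an adjusted p of 0.139 for Hnf4a and -0.25 with an adjusted p of 0.206 for Ahr in limma. Nr1i2 was called lower without control mouse 4 (adjusted p = 0.0321) or 7 (adjusted p = 0.0344) in limma, and Ahr after quantile normalization (-0.42, adjusted p = 0.0329).

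Within a group many genes shared part of the order of the mice, so the genes are not independent observations. Among the control mice, mouse 4 was lowest for 21 of the 45 genes and highest for 1, and among the anti-CD40 mice, mouse 9 was highest for 30. Leaving out any 1 mouse gave 35 to 37 genes lower and 2 higher. Relative depth, from the value of 1 read, lay between 0.870 and 1.13 over the 9 mice, while absolute depth is not known and no counting interval can be given.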

How the data were processed

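RNA from the livers of 9 mice was made into QuantSeq 3′ libraries, which the authors mapped with STAR to mm10, and they deposited FPKM values made with Cufflinks, 1 per gene and mouse, with a floor of 0.01. Annotation and filter are not given in the sources used here. Mice were grouped by the treatment in their labels and were separate animals.

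The deposited FPKM were tested as log2(FPKM + 0.1) with limma 3.58.1 in R 4.3.3 (eBayes with trend, treatment as the only factor, 2-sided) in the 13807 genes with a mean of at least 0.1 FPKM and no failed estimate (15 genes failed, none of them members). P-values were Benjamini-Hochberg adjusted over all genes, with a threshold of 0.05. Within-mouse log2 ratios of 13 gene pairs were compared by exact permutation, 2-sided, over the 84 ways to place 3 and 6 mice. Scripts were tested on simulated data. Sums by subfamily were not tested.

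Of 3349 low genes, 87.6% came out as whole reads in every mouse, within 0.05 reads, but higher genes could not be read this way, so no count test was run. Absolute depth is unknown. Genes named were every member called higher, the 2 largest decreases and the highest control mean in each subfamily, uncalled members with a control mean of at least 1 FPKM, members of the lists and pairs, and the leading pathway genes, with others added where said. The members and lists were chosen with earlier results of these data known. Promoters came from RefSeq on GRCm38.p6 and transcript ends from GENCODE M21. Alternatives were other pseudocounts, filters, scalings and eBayes settings, a fold limit and leaving out each mouse. Scaling to hepatocyte genes was added after the data were seen. Python 3.11.15 did the remaining steps.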

Additional observations from a re-analysis of the deposited data

Results flagged for a closer look

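In each of 56 genes, the distance from the top or bottom control value to its neighbor was divided by the range of the 6 control mice, and 2 control groups held a mouse far from the others, where chance flags about 1 in 20 groups. For Cyp3a44, a female-biased gene, control mouse 7 was at 19.3 FPKM and the next control at 5.15, a gap of 0.812 of the range. For Hmox1, which degrades heme, control mouse 4 was at 15.7 FPKM and the next control at 10.2, a gap of 0.696 of the range.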

How the results depend on the processing

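The count of members lower was 35 to 37 without any 1 mouse and 24 under the hepatocyte scaling, which was added after the data were seen. The other counts that moved by over 1.5 times were as follows. Members higher numbered 0 with a mean of at least 1 FPKM, since Cyp1b1 and Cyp2d12 lie below that filter, 4 without the Saa genes, and 5 under the hepatocyte scaling. Regulator genes called numbered 16 under the hepatocyte scaling, 3 with a fold change of at least 2, and 5 to 9 without any 1 mouse, the 5 without anti-CD40 mouse 2. Electron transfer and heme genes called numbered 7 with a fold change of at least 2. Pairs with unequal change numbered 0 without any 1 control mouse, where the smallest adjusted p was 0.0516 in the exact permutation test. Without an anti-CD40 mouse that test cannot go below 0.0714 and was not run.

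Leaving out the Saa genes and rescaling moved the median of all genes to 0.35, where summed FPKM changed by a log2 ratio of -1.34 for Cyp2a, -3.25 for Cyp2c, -0.48 for Cyp2j and -1.81 for all members. It turned the direction of Cyp2s1 (0.047), Cyp3a13 (0.26), Ahr (0.11) and Por (0.11), none of them called, and Cyp2d9 (1.74) and Cyp2j6 (0.48) were then called higher. Quantile normalization turned Por (0.038) and Cyp3a13 (0.32, called), and Cyp1a1 (-0.93), Cyp2j9 (-1.19) and Ahr (-0.42) were then called lower. Alas1 was called higher under quantile normalization (1.31), without the Saa genes (1.39) and under the hepatocyte scaling (2.13). The hepatocyte scaling moved the median of all genes to 1.11 and turned Cyp1a1 (0.61), Cyp2c38 (0.16), Cyp2c39 (0.53), Cyp2c67 (0.048), Cyp2d10 (0.037), Cyp2d26 (0.13), Cyp2j5 (0.13), Cyp2j9 (0.27), Cyp2s1 (0.85), Cyp3a13 (1.003), Ahr (0.86), Hnf4a (0.67), Nr1i2 (0.50) and Por (0.86), of which Cyp3a13, Ahr, Hnf4a, Nr1i2 and Por were called higher. The cause was not tested. No paired analysis was possible because the groups share no mouse numbers.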
